A study of Mus musculus with 6 samples.

Results

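The transcripts of 10 genes of fibroblast growth factor (FGF) signalling were followed, namely the 6 ligand genes Fgf2, Fgf5, Fgf7, Fgf10, Fgf18 and Fgf21, the 3 receptor tyrosine kinase genes Fgfr1, Fgfr2 and Fgfr3, and the receptor-like gene Fgfrl1. The genes were looked up by symbol, and all 10 were found among the 55401 genes of the table. All 10 also belonged to the 16773 genes with an adjusted p-value, which are called tested genes. RNA was measured in iMEF, which are immortalised mouse embryo fibroblasts, after 24 h with dTAG-13 and in the same cells without dTAG treatment. Cells of both groups came from floxed Ash2l alleles with an inducible Cre-ER, lacked exon 4 of the endogenous Ash2l and lived on a lentiviral, N-terminally FKBP12F36V-tagged human ASH2L. ASH2L belongs to the KMT2 complexes that methylate histone H3 at promoters, and dTAG-13 sends the tagged protein to the proteasome. The study's legend names the cells as NG3, so the result describes 1 clone, and no dTAG-13-treated cells without the tag were among the libraries.

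FGF ligands are secreted proteins that bind FGF receptors together with heparan sulfate at the cell surface. The paired receptors phosphorylate each other and the adaptor FRS2, which feeds the RAS-ERK cascade, and ERK then switches on immediate early genes and its own inhibitors of the Sprouty and DUSP families. In connective tissue, FGF2 is a classical mitogen of fibroblasts, while FGF7 and FGF10 are made by fibroblasts and act mainly on neighbouring epithelium through a splice form of FGFR2.

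Of the 10 genes, Fgf2 fell and Fgfr2 rose after dTAG-13, and the other 8 did not pass the threshold, an adjusted p under 0.05 by the test that the authors deposited. The fall of Fgf2 was −2.42 ± 0.33 (SE) on the log2 scale, which is 5.36 times lower. Fgfr2 had a log2 fold change of 0.58 ± 0.19, which is 1.49-fold higher. Over all tested genes, 19.9% were called in either direction, 12.5% lower and 7.45% higher, so 1 lower and 1 higher gene of 10 is a share near that background. By the authors' DESeq2 test with p-values left unadjusted (under 0.05), 3 of the 10 were lower and 1 was higher, against 17.9% lower and 12% higher of all tested genes. The median log2 fold change was −0.11 over the 10 genes and −0.02 over all tested genes.

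**Figure D1:**
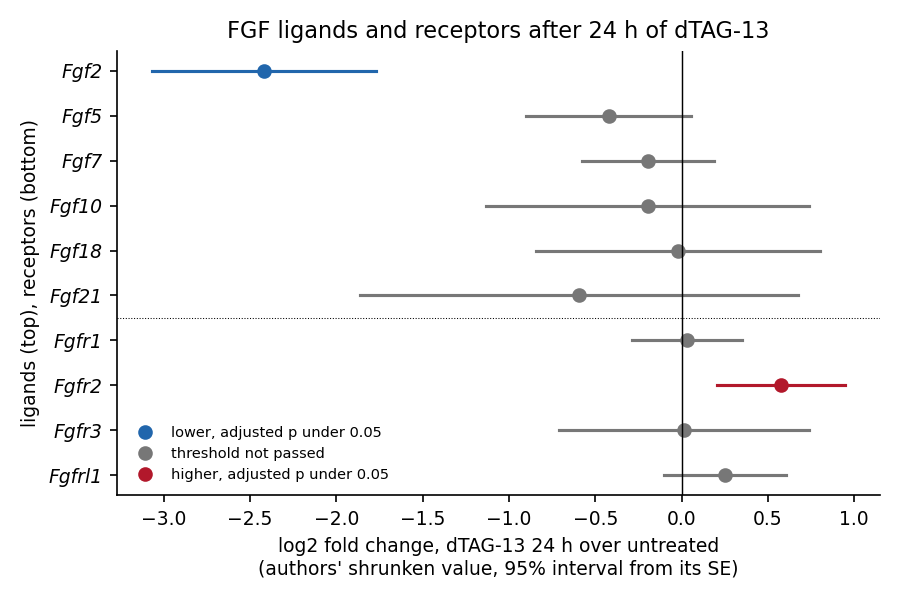
Log2 fold change (dTAG-13 for 24 h over untreated) of the 6 ligand genes and the 4 receptor genes. Points are the authors' shrunken values and lines are 95% intervals from their standard errors. The interval of Fgf2 lies wholly below 0 (−3.07 to −1.77), that of Fgfr2 wholly above 0 (0.20 to 0.95), and the other 8 include 0.

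The deposited table gave each gene a single mean of normalized counts, taken across both groups, and no column per library. Group means are therefore not given, and the total number of reads in each library is unknown. The labels list 3 libraries after dTAG-13 and 3 untreated libraries, the study's legend gives fewer, and the values of weak genes corresponded to 5 libraries. Reads of Spry1 and Spry4, given at the end, leave fewer dTAG-13 libraries among these 5 than the 3 labelled ones. Nothing in the sources says that the libraries came from separate cultures, so the errors may cover technical spread only. In bulk RNA, fewer cells that express a gene and less RNA per cell cannot be told apart. A stranded kit for total RNA stands in the labels, but a 3′ mRNA kit stands in the methods, so whether the counts used strand and which part of each transcript they cover are uncertain. Of the fibroblast markers, Col1a1, Col1a2 and Vim were abundant, with mean normalized counts of 86116, 109792 and 36949, whereas Dcn and Lum were low at 5.68 and 1.73. Of the 12 fibroblast markers tested, 5 were lower and 2 higher after dTAG-13, against 12.5% and 7.45% of all tested genes. Among these 12 markers, Thy1 had the largest log2 fold change in size (−1.36 ± 0.20). The epithelial markers Epcam, Krt8, Krt18 and Krt5, the endothelial marker Cdh5 and the blood markers Adgre1 and Hba-a1 were listed at 0. The other markers of these cell types had mean normalized counts of up to 25.4, which was that of Cd68 and was followed by 7.37 for Lyz2, 7.32 for Cdh1, 2.72 for Pecam1 and 2.54 for Kdr. None of these 5 passed the test, and Cdh1 had a log2 fold change of 0.46 ± 0.74. The remaining 6, Ptprc among them, were between 0.14 and 1.14 and had no adjusted p. The part of these shifts in the FGF values was not tested.

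Sequences were taken from the RefSeq promoter windows of GRCm38.p6, which matched 9 of the 10 genes by symbol. Fgfr3 had a window at each of 2 starts, and Fgfr1 was not matched. The 250 bases before the start were searched on both strands for 5 motifs. The TATA box was spelled TATAAA and the GC box GGGCGG. The ETS motif was spelled CCGGAAGT and the EGR motif, to which EGR1 binds, GCGNGGGCG. The AP-1 motif was spelled TGANTCA. The GC box and EGR motif can overlap and did so in the windows of Fgf2 and Fgfrl1. The following lines hold, in the gene's own direction, 30 bases of the ligand that fell, and the 250 bases before the start of the receptor that rose and of the receptor-like gene with the most motif matches. Capitals mark motif matches.
Fgf2, chr3:37348595-37348624, plus strand: cggcgcgcgGGGCGGGGGCGcacggggccg
Fgfr2, chr7:130266809-130267058, minus strand: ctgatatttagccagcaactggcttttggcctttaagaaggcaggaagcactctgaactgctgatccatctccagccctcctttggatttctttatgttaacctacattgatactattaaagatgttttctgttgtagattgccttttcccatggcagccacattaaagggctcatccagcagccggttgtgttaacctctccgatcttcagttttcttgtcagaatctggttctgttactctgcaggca
Fgfrl1, chr5:108693979-108694228, plus strand: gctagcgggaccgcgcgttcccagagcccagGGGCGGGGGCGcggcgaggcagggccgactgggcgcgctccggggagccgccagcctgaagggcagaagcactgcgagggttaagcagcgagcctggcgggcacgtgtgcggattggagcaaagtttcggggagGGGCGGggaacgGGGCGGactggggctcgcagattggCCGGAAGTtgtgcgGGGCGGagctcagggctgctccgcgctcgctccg
The Fgf2 matches ran from −49 to −39 before the RefSeq start. The Fgf2 window overlaps 1 annotated exon, and the windows of Fgfr3 overlap 2 and 1, so part of these windows is annotated as transcribed. The Fgfr2 window held no match and 2 CpG dinucleotides, against 30 CpG dinucleotides in the Fgfrl1 window. No transcript start of the 27 annotated Fgfr2 transcripts in GENCODE M21 lies within 100 bases of this RefSeq start, so the Fgfr2 window may not be the promoter in use in these cells. For Fgf2, 1 of 8 annotated transcripts starts within 100 bases of the RefSeq start.

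CpG observed over expected, a measure of how far a sequence has kept its CpG dinucleotides, varied widely among the FGF windows. It was 0.86 for Fgf2, 0.17 for Fgfr2, 0.95 for Fgfrl1 and 1.02 for Fgf18. The windows of Fgf5 (0.77), Fgf7 (0.51), Fgf21 (0.41) and Fgf10 (0.40) lay between these, as did both windows of Fgfr3 (0.69 and 0.76). A value over 0.6 was found in 6 of the 10 windows, against 62.5% of the 13886 windows of tested genes and 34.0% of all 32851 windows. The GC box was found in 8 of the 10 windows, against 55.6% of windows of tested genes and 32.7% of all windows. The EGR motif was found in 3 of the 10 windows (Fgf2, Fgfrl1 and 1 of Fgfr3), against 8.44% and 4.70%. The ETS motif was found in the Fgfrl1 window alone among the 10 windows, against 5.45% and 2.88%. The TATA box was found in the Fgf21 window alone, from −28 to −23 before the start, against 7.04% and 12.4%. The AP-1 motif was in 0 of the 10 windows, against 4.75% and 6.75%. These matches describe letters in the windows and say nothing of bound factors.

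**Figure D2:**
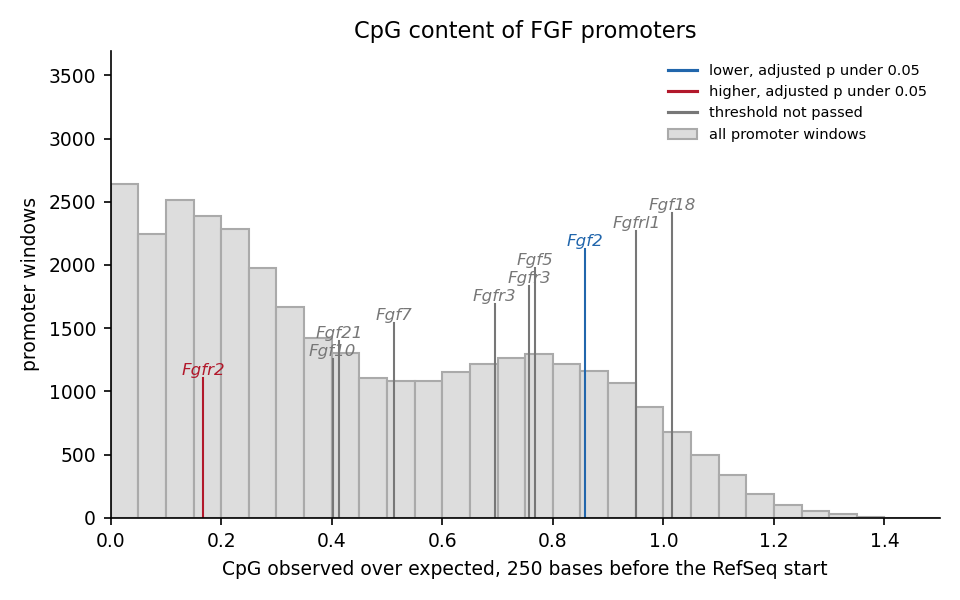
CpG observed over expected in the 250 bases before the RefSeq start (x axis) and number of promoter windows (y axis). Grey bars are all 32851 windows, and lines mark the 10 windows of 9 FGF genes, with line heights set only for legibility. Fgf2 (0.86) lies in the CpG-rich hump and Fgfr2 (0.17) in the CpG-poor one.

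Among the ligands, Fgf2 was the gene that passed the test. Fgf2 (ENSMUSG00000037225.13, GRCm38 chromosome 3, 37348346 to 37410108, plus strand) encodes the basic FGF, a mitogen that leaves the cell without a signal peptide. Its mean normalized count was 85.1, near the middle of the tested genes (percentile 48.7), and its adjusted p was 1.3e-12. Its fold change was negative and past the threshold under all 6 alternatives that were tried. Nudt6, the antisense neighbour of Fgf2, shares 640 exonic bases with it, 9.44% of its exonic length. Nudt6 had a mean normalized count of 0.57, and reads of the shared bases cannot be told apart if strand was not used.

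The whole reads behind 6 of the 10 genes could be recovered from the deposited means, as whole numbers in 5 libraries that carry no label. The 433 reads of Fgf2 were spread between 22 and 147 reads per library. In normalized counts, Fgf2 had a lowest value of 15.3, a median of 91.6 and a highest value of 151 over the 5 libraries. The labels do not tie the libraries to the groups. Reads of Spry1 and Spry4, given at the end, confine any dTAG-13 library to the lowest and next lowest of these Fgf2 values. They do not say whether both are treated, so the values are given for depth and not as a group comparison.

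Fgf5 (ENSMUSG00000029337.2, chromosome 5, 98254184 to 98277030, plus strand), a ligand known as a brake on hair growth, was at a similar level to Fgf2 but did not pass the test. Its mean normalized count was 97.0, its log2 fold change −0.42 ± 0.24 and its adjusted p 0.15 in the authors' deposited table. The 95% interval of −0.90 to 0.06 leaves room for a fall to 0.54 of the untreated level. Its 475 reads gave normalized counts with a lowest value of 62.0, a median of 94.3 and a highest value of 137, a narrower spread than that of Fgf2.

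Fgf7 (ENSMUSG00000027208.14, chromosome 2, 126034658 to 126091185, plus strand), keratinocyte growth factor, was the most abundant of the 6 ligands, with a mean normalized count of 572 (percentile 80.8). Its log2 fold change was −0.19 ± 0.19 in the authors' deposited table, with an interval of −0.57 to 0.19 and an adjusted p of 0.51. Fgf10 (ENSMUSG00000021732.14, chromosome 13, 118669791 to 118792115, plus strand), which drives branching of lung and limb outgrowth, was close to the limit of detection. It had a mean normalized count of 3.62 from 18 reads in all, 10 of them in 1 library, and a log2 fold change of −0.20 ± 0.48. Its interval of −1.13 to 0.74 is too wide to tell a fall from a rise at this depth.

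Fgf18 (ENSMUSG00000057967.12, chromosome 11, 33117430 to 33147400, minus strand), a ligand of cartilage and bone growth, had 13 reads in all, with 0 to 4 per library. Its mean normalized count was 3.07 and its log2 fold change −0.02 ± 0.42, with an interval of −0.84 to 0.80. Fgf21 (ENSMUSG00000030827.5, chromosome 7, 45613886 to 45615490, minus strand), an endocrine factor of fasting metabolism that needs the coreceptor beta-Klotho, had a mean normalized count of 13.4 from 64 reads. Its log2 fold change was −0.59 ± 0.65 and its adjusted p 0.17, with an interval of −1.86 to 0.67. The normalized counts of Fgf21 had a lowest value of 4.87, a median of 14.5 and a highest value of 23.3 over the 5 libraries. Klb and Kl, which encode beta-Klotho and Klotho, were listed at 0.

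**Figure D3:**
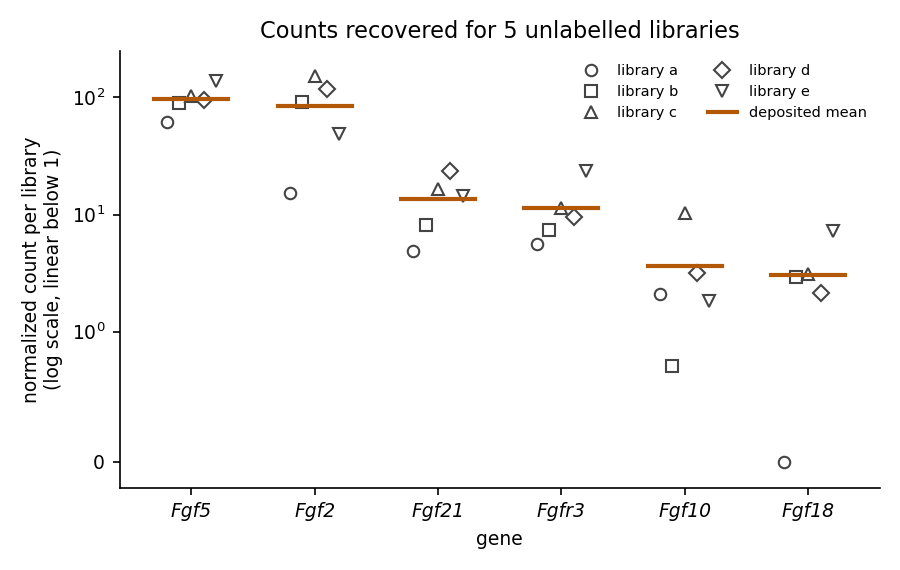
Normalized count (y axis, log scale that is linear below 1) in each of 5 unlabelled libraries for the 6 FGF genes with recovered reads. Symbols are libraries a to e, not assigned to groups, and bars are the deposited means. Fgf2 runs from 15.3 to 151, whereas Fgf5 runs from 62.0 to 137.

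All 6 ligands had a negative log2 fold change as deposited, from −2.42 for Fgf2 to −0.02 for Fgf18, against 8780 of 16773 tested genes. Only Fgf2 of the 6 passed the test, and Fgf18 turned to 0.026 and 0.17 when the zero point was moved. The median over the 6 was −0.31. Of the 18 secreted FGF genes, 7 were listed at 0, and 4 more (Fgf1, Fgf16, Fgf17 and Fgf22) had reads but no adjusted p. The 7 tested ligands were the 6 genes above and Fgf9. Of these, 2 fell and 0 rose, against 12.5% lower and 7.45% higher of all tested genes. By the authors' DESeq2 test with p-values left unadjusted (under 0.05), 4 of the 7 were lower and 0 higher, against the 17.9% and 12% of all tested genes. Fgf9, a glia-activating factor known for its role in the gonad and lung, fell by 2.62 ± 0.48 on the log2 scale, with an adjusted p of 1.0e-07 at a mean normalized count of 32.5. Its 171 recovered reads were spread between 8 and 61 per library. Of the intracellular FGF homologous factors, which do not act through FGF receptors, only Fgf14 was tested, and its log2 fold change was 0.18 ± 0.41.

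Among the receptors, Fgfr2 (ENSMUSG00000030849.18, chromosome 7, 130162451 to 133123350, minus strand) passed the test. Its mean normalized count was 396 (percentile 74.2), its interval 0.20 to 0.95 on the log2 scale and its adjusted p 0.0069 in the authors' deposited table. The call held under all 6 alternatives, with adjusted p-values between 0.00023 and 0.021. Fgfr2 shares 314 exonic bases, 3.04% of its exonic length, with Ctbp2 on the same strand. Ctbp2 had a mean normalized count of 629 and a log2 fold change of 0.22 ± 0.20, with an adjusted p of 0.44. The span of the Fgfr2 gene is that of all its annotated transcripts together and is far wider than the RefSeq start would give. FGFR2 exists in an epithelial and a mesenchymal splice form, and the table does not separate them. Of the splice regulators that set this choice, Esrp1 was listed at 0, and Esrp2 had a mean normalized count of 4.01. Rbfox2, at a mean of 2891, had a log2 fold change of 0.04 ± 0.15, and Ptbp1, at a mean of 31.9, had −0.40 ± 0.38. Neither of the splice regulators Rbfox2 and Ptbp1 passed the test. By the authors' DESeq2 test with p-values left unadjusted (under 0.05), 0 of the 3 tested were called. The shares of all tested genes were 17.9% lower and 12% higher.

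Fgfr1 (ENSMUSG00000031565.18, chromosome 8, 25513654 to 25575718, plus strand), the main FGF receptor of mesenchymal cells, had the highest mean normalized count of the 10 genes (1053, percentile 89.8). Its log2 fold change was 0.03 ± 0.16 in the authors' deposited table. The interval of −0.28 to 0.35 puts the level after dTAG-13 between 0.82 and 1.27 times the untreated level. Fgfr3 (ENSMUSG00000054252.18, chromosome 5, 33721674 to 33737068, plus strand), a restraint on bone growth, was weak, with a mean normalized count of 11.5 from 51 reads and a log2 fold change of 0.01 ± 0.37. Its normalized counts over the 5 libraries had a lowest value of 5.57, a median of 9.53 and a highest value of 23.5. Fgfrl1 (ENSMUSG00000008090.14, chromosome 5, 108692382 to 108706924, plus strand), which binds FGF but lacks the tyrosine kinase domain, had a mean normalized count of 418 and a log2 fold change of 0.25 ± 0.18 (interval −0.10 to 0.61), with an adjusted p of 0.32. Fgfrl1 was called higher under 1 alternative, recentring on housekeeping genes, with an adjusted p of 0.046 and a range of 0.046 to 0.51 over its 6 alternatives. Fgfr4 was listed at 0. All 4 receptor genes had a log2 fold change above 0 as deposited, against 7993 of 16773 tested genes, with a median of 0.14. By the authors' DESeq2 test with p-values left unadjusted (under 0.05), 0 of the 4 were lower and 1 was higher. The shares of all tested genes were 17.9% and 12%.

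**Figure D4:**
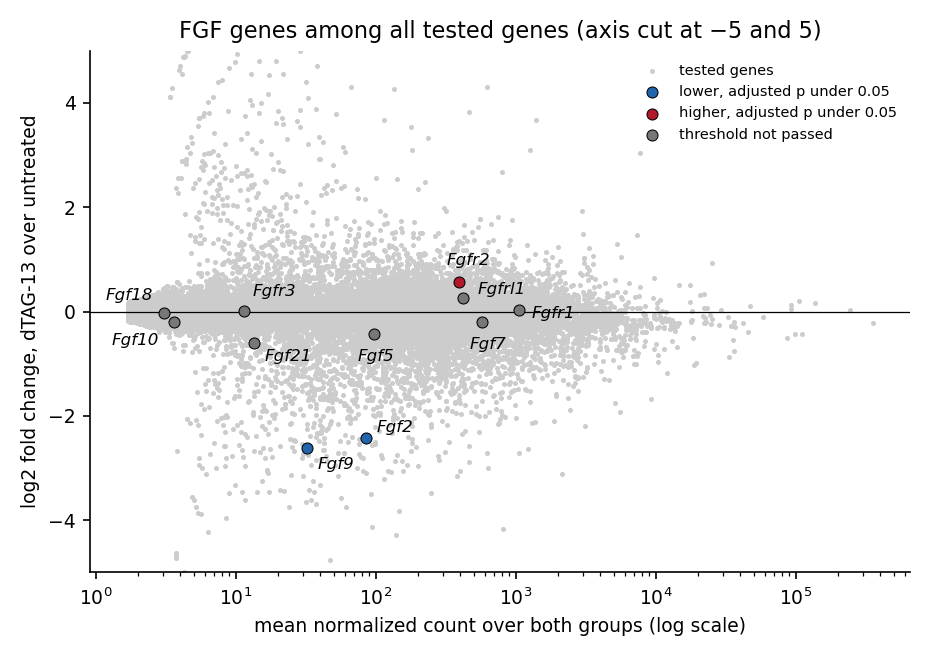
Mean normalized count (x axis, log scale) and log2 fold change for dTAG-13 against untreated cells (y axis, drawn between −5 and 5) for all 16773 tested genes in grey. The 10 FGF genes and Fgf9 are labelled. Fgf2 (−2.42) and Fgf9 (−2.62) lie among the lower points at their counts, and Fgfr1 (0.03) lies near 0.

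The order of levels depended on the scale. Per kb of annotated exon, the mean normalized count was highest for Fgf7 (176), followed by Fgfrl1 (150) and Fgfr1 (107). Fgf5 (38.8) and Fgfr2 (38.3) came next, then Fgf21 (14.1) and Fgf2 (12.5), and the lowest were Fgf18 (2.59), Fgfr3 (1.60) and Fgf10 (0.79). If only the 3′ ends of transcripts were read, as the methods have it, counts do not grow with length, and the order is then that of the mean counts, led by Fgfr1 (1053), Fgf7 (572), Fgfrl1 (418) and Fgfr2 (396). On either scale Fgf10, Fgf18 and Fgfr3 were the 3 lowest. Which neighbours in these orders differ beyond their spread cannot be said, since the table gives no spread of levels within a group.

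Of 12 tested coreceptors and binding proteins of FGF, 2 were lower, 1 was higher and 9 did not pass the test, a share called near the 19.9% of all tested genes. Flrt1, a membrane protein of the FLRT family that interacts with FGF receptors, fell by 3.01 ± 0.34 on the log2 scale, 8.03 times lower, at a mean normalized count of 73.7. Its relatives Flrt2 and Flrt3 did not pass the test, with log2 fold changes of −0.10 ± 0.15 and 0.06 ± 0.17. Sdc1, a heparan sulfate proteoglycan of the surface, fell by 0.69 ± 0.19, and the glypican Gpc3 rose by 2.93 ± 0.48 on the log2 scale, 7.60-fold, at a mean of 40.1.

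Of 13 tested genes that make or edit heparan sulfate, 1 fell and 2 rose, against 12.5% lower and 7.45% higher of all tested genes. The epimerase Glce fell by 0.53 ± 0.18 on the log2 scale, a call that was lost when fold changes were recentred on housekeeping genes. Hs2st1, a sulfotransferase that adds 2-O-sulfate, to which FGF2 binds, rose by 0.60 ± 0.17, and the sulfotransferase Hs3st1 rose by 2.21 ± 0.61 on the log2 scale at a mean normalized count of 21.5. The chain-building Ext1 and Ext2 did not pass the test, with log2 fold changes of 0.20 ± 0.16 and 0.16 ± 0.16. Sulf1, an extracellular sulfatase, did not pass it as deposited (0.36 ± 0.16) and was called higher under both recentrings.

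Between the receptor and ERK, 2 of 21 tested genes fell and 1 rose, against 12.5% lower and 7.45% higher of all tested genes. Nras, which encodes a RAS protein, fell by 0.73 ± 0.16 on the log2 scale, and the ERK-activated kinase gene Rps6ka1 fell by 1.57 ± 0.41. Braf rose by 0.48 ± 0.19 on the log2 scale. Recentring on housekeeping genes raised the number of higher genes among these 21 to 6. Frs2, the receptor's docking adaptor, did not pass the test (−0.05 ± 0.15). The median log2 fold change of the 21 genes was 0.09.

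Downstream, 11 of 16 tested feedback inhibitors and target genes of the cascade were lower and 0 higher, against 12.5% and 7.45% of all tested genes. Their median log2 fold change was −2.08. By the authors' DESeq2 test with p-values left unadjusted (under 0.05), 12 of the 16 were lower and 0 higher, against the 17.9% and 12% of all tested genes. The 4 with the smallest adjusted p were Egr1 (−3.11 ± 0.17), Ccnd1 (−2.70 ± 0.17), Etv4 (−4.28 ± 0.34) and Dusp6 (−2.85 ± 0.25). The Sprouty gene Spry2 lost its call when fold changes were recentred on housekeeping genes (adjusted p 0.055). These genes also answer to other receptors, so the values do not single out FGF. Among the 11 other receptor tyrosine kinases of fibroblasts tested, 3 were lower and 1 higher, against 12.5% and 7.45% of all tested genes. Axl (−1.16 ± 0.16), Ddr2 (−0.50 ± 0.16) and Flt1 (−2.25 ± 0.49) fell and Ddr1 (0.74 ± 0.17) rose. Pdgfrb (−0.10 ± 0.17), Egfr (−0.28 ± 0.19) and Igf1r (0.04 ± 0.15) did not pass the test. The call of Ddr2 was lost when fold changes were recentred on housekeeping genes (adjusted p 0.11).

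**Figure D5:**
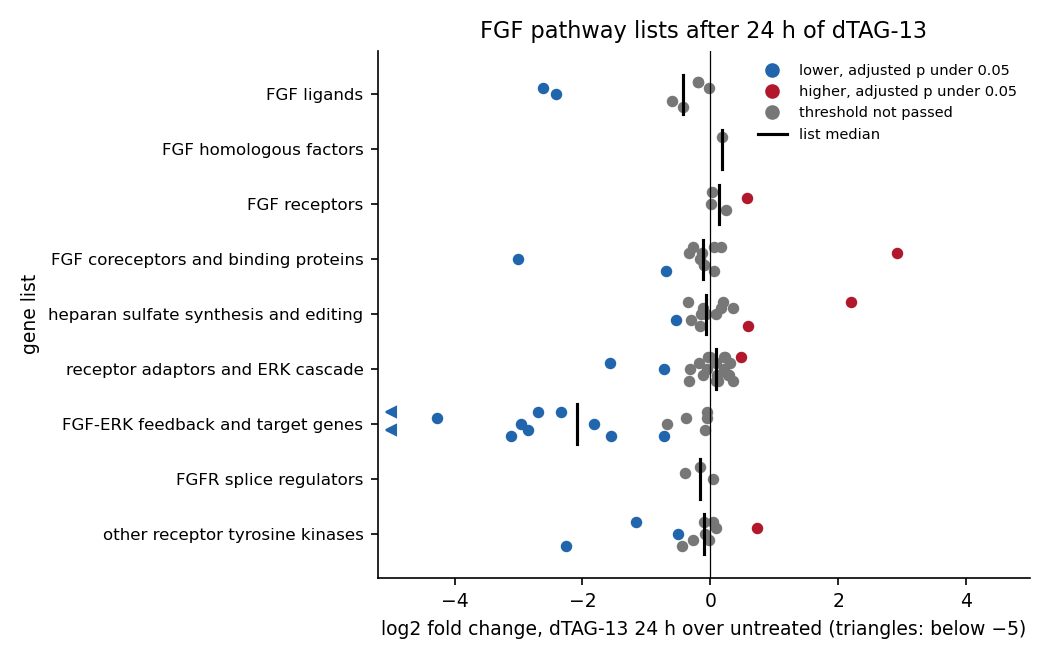
Log2 fold change for dTAG-13 against untreated cells (x axis) for each tested gene of 9 lists of the FGF pathway (rows), in blue where lower and in red where higher at an adjusted p under 0.05. Black bars are list medians and triangles mark values below −5. The median is −2.08 for feedback and target genes and lies between −0.42 and 0.18 in the other 8 lists.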

How the data were processed

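Cells and libraries were as described above. According to the methods, the authors added ERCC spike-in RNA, used Trim Galore for trimming, STAR for alignment to mm10 and featureCounts for read counts per gene, normalized to the spike-ins and compared the groups with DESeq2, with versions not given in the sources used here. The deposited signal of a gene is its mean normalized read count across both groups, not logged. The log2 fold change in the deposited table is dTAG-13 at 24 h over untreated after shrinkage by the authors, for which the methods name apeglm, and the deposited standard error belongs to it. Each deposited p-value came from the authors' 2-sided DESeq2 test, and the deposited adjusted p-value covers the genes that passed their filter on low means. These comparison columns are the authors' own, and no test across genes was run here. The authors' separate lists of lower and higher genes were not used.

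A gene was called at an adjusted p under 0.05. Intervals of 95% were the log2 fold change ± a normal quantile times its standard error. Whole reads were solved from means up to 100 as sums over 5 unlabelled libraries, and all 8923 genes with a mean up to 3 had exactly 1 solution. The solver and the recentring were tested on simulated data. Gene models came from GENCODE M21 and promoter windows from RefSeq (GRCm38.p6). Python 3.11.15, numpy 2.4.6, pandas 2.3.3, scipy 1.17.1 and matplotlib 3.10.9 were used. The 10 genes and the 9 lists were chosen with earlier results of these data known. All 10 genes are named, and of each list the genes past the threshold, up to 4 per direction by adjusted p. Spry1, Spry2, Spry4 and the genes named that did not pass the test were chosen after their values were seen. The 6 alternatives were recentring on genes with a mean of at least 100 or on 15 housekeeping genes, a threshold of 0.01, adjustment over all p-values or over genes with a mean of at least 10, and p-values from the shrunken fold change.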

Additional observations from a re-analysis of the deposited data

How the results depend on the processing

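Fgf2 stayed lower and Fgfr2 stayed higher, each past the threshold, under all 6 alternatives, with adjusted p-values of 1.0e-12 to 7.9e-11 for Fgf2 and 0.00023 to 0.021 for Fgfr2 (p-values from the authors' DESeq2 test or the shrunken fold change). Moving the zero point to −0.05 (8236 genes with a mean of at least 100) turned Fgf18 to 0.026, and moving it to −0.19 (15 housekeeping genes) turned Fgf18 to 0.17. The housekeeping zero point also raised the higher FGF genes to 2 (Fgfrl1 at 0.44) and the higher receptors to 2, brought the lower heparan sulfate genes to 0 and the higher adaptor and ERK cascade genes to 6. It gave 1483 lower and 2314 higher genes of all tested, against 2093 and 1250 as deposited. Of the 15 housekeeping genes, 14 had a negative log2 fold change and 2 were called lower, Tfrc (−0.91 ± 0.18) and Ppia (−0.81 ± 0.21). This zero point may therefore not mark unchanged genes, and whether the deposited one does was not tested. Other settings gave 2261 to 3332 called genes in all, against 3343. Fgf10 and Fgf18 were left out of the setting that kept genes with a mean of at least 10. No paired analysis was possible because the table has no values per library, and for the same reason no library could be left out in turn. Depth limits Fgf10, Fgf18, Fgf21 and Fgfr3, which rest on 13 to 64 reads in all.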

Other observations

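The recovered reads belong to 5 libraries, called a to e, that the labels do not tie to a group. In these, 1 read was worth 0.70, 0.73, 1.03, 1.06 and 1.81 normalized counts, a range of 2.60 times. Fgf2 had normalized counts of 15.3, 91.6, 151, 119 and 48.8 in libraries a to e. The values of libraries a and e lay below those of b, c and d. Fgf9 had 6.26, 44.7, 55.5, 41.3 and 14.5 normalized counts in the same order, with a and e again lowest. Spry1 and Spry4, which encode Sprouty inhibitors of the cascade, had 0 reads in libraries a and e and between 14 and 33 reads in each of the others. Their log2 fold changes were −7.66 ± 2.72 and −7.46 ± 2.71 as deposited. Values that low leave no room for a dTAG-13 library among b, c and d, so any dTAG-13 library is a or e. Each deposited fold change, also that of Fgf2 and Fgfr2, thus rests on a, e or both for dTAG-13, against 3 labelled libraries. In a, 1 read was worth least, 0.70 normalized counts, and in e most, 1.81. Fgf2, Fgf9, Spry1 and Spry4 were called lower by the deposited test on these libraries, so their shared pattern restates that test.

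Fgf5 had normalized counts of 62.0, 89.4, 102, 94.3 and 137 in libraries a to e, with the lowest in a and the highest in e. Fgfr3 had 5.57, 7.33, 11.3, 9.53 and 23.5, and Fgf21 had 4.87, 8.06, 16.5, 23.3 and 14.5. Fgf10 had 3, 1, 10, 3 and 1 reads, and Fgf18 had 0, 4, 3, 2 and 4 reads. The values of Fgf5, Fgfr3, Fgf21, Fgf10 and Fgf18, which did not pass the deposited test, did not set libraries a and e apart together. For Fgf5, a and e lay on both sides of b, c and d, while its deposited log2 fold change was −0.42 ± 0.24. No fold change was computed from recovered counts, so whether they return the deposited values, also for Fgf2, was not tested.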
